A study of Mus musculus with 8 samples.

Results

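Slc22 is a family of membrane carriers that move charged organic molecules across the plasma membrane, and 9 of its genes, Slc22a3, Slc22a5, Slc22a7, Slc22a18, Slc22a23, Slc22a27, Slc22a28, Slc22a29 and Slc22a30, were followed here in mouse liver. Each gene was read from the array row that names it and no other gene, and of several such rows the brightest on average over the 8 arrays was to be used. No Slc22a gene had more than 1 such row. Of the 9 listed genes, 8 were measured and Slc22a3 was not analysed here, so the text covers 8 of 22180 genes with a value. A further 16 genes whose symbols begin with Slc22a were measured and serve as the rest of the family, 24 in all. The 9 genes were chosen on results of these same data. A count of them that passes a test of genotype or signal set therefore supports nothing about the family. Their values are a description.

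Liver RNA was hybridised to 8 Affymetrix Mouse Gene 2.0 ST arrays, 1 array a sample, and the design text counts 4 mice of each genotype without saying which array holds which mouse. All mice are labelled C57BL/6, female and 6 weeks old, and all had colitis induced by 3% dextran sulfate sodium (DSS), a sulfated sugar polymer toxic to the colon lining, in drinking water over 7 days. The labels give 4 arrays to wild-type mice and 4 to IL-10 knockout mice, in which the gene of the anti-inflammatory cytokine interleukin-10 is disrupted. No mouse without DSS was analysed here, so each genotype difference is a difference under colitis.

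Organic anion transporters of the family (the OAT branch, which includes Slc22a6, Slc22a7 and Slc22a8) exchange anionic drugs, hormone conjugates and metabolites for anions on the other side of the membrane. Organic cation transporters (such as Slc22a2 and Slc22a3) carry cationic drugs and amines, and the OCTN branch (Slc22a4, Slc22a5 and the mouse gene Slc22a21) carries zwitterions such as carnitine. In the liver these carriers sit mainly on hepatocytes and set which compounds are taken up from blood. Rodents carry an additional run of OAT-like genes, and several of them are expressed differently in male and female liver or kidney.

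That run lies on chromosome 19 beside the OAT genes Slc22a8 and Slc22a6 named above. In the order of the RefSeq table the neighbours are Slc22a19, Slc22a26, Slc22a27, Slc22a28, Slc22a29, Slc22a30, Slc22a8 and Slc22a6. All 8 are called the run below, and Slc22a27 to Slc22a30 are 4 members side by side. Promoter windows, 250 bases before to 50 bases after the annotated start, were taken from RefSeq (GRCm38.p6) and matched by symbol for 21 of the 24 measured family genes and for 8 of the 9 listed genes. The windows of Slc22a28 (chr19:8131933-8132232), Slc22a30 (chr19:8405056-8405355) and Slc22a29 (chr19:8218851-8219150), all on the minus strand, are shown because the first and the second of these genes had nearly the same profile over the arrays while the third did not. They read 5′ to 3′, with the 22-base run that all 3 windows share in capitals.
Slc22a28: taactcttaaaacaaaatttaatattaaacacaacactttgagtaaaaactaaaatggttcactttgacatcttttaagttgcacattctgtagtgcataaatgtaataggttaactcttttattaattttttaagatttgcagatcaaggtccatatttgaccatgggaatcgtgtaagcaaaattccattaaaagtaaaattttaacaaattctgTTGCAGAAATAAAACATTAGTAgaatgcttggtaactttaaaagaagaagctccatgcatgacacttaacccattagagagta
Slc22a30: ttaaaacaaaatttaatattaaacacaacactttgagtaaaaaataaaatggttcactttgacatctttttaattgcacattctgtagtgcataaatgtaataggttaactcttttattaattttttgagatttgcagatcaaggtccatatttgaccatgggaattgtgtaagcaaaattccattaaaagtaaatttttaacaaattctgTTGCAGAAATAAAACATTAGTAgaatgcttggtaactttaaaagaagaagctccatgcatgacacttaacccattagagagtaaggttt
Slc22a29: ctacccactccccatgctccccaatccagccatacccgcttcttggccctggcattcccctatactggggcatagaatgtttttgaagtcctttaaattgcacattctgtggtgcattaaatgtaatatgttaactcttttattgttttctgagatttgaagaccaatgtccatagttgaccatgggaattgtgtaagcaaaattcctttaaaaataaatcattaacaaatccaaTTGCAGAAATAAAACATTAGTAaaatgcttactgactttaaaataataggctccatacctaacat
The shared run covers positions -33 to -12 of Slc22a28, -39 to -18 of Slc22a30 and -15 to 6 of Slc22a29, counting the annotated start as 0. Aligned end to end, the windows of Slc22a28 and Slc22a30 were identical at 288 of 306 aligned columns (94.1%), with 6 mismatches and 12 gap columns, and their longest common run was 98 bases. Slc22a29 matched Slc22a28 at 68.0% of columns and Slc22a30 at 68.1%. These were the closest 3 of the 28 pairs among the 8 genes of the run, since the other pairs matched at 45.6% to 64.1%. Over the 8 arrays Slc22a29 had Pearson's r = 0.31 with Slc22a28 and 0.35 with Slc22a30. Slc22a27 and Slc22a29, whose windows matched at only 50.1% of columns, had r = 0.93. A link between window and profile was not tested.

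The arrays did not all carry the signal their sex label implies. Although all mice are labelled female, wild-type replicates 1 and 2 and knockout replicates 1 and 2 read between 8.03 and 8.71 for the Y-linked genes Eif2s3y, Kdm5d and Uty and between 5.62 and 6.32 for Xist, the RNA that coats the inactive X chromosome. Replicates 3 and 4 of both genotypes read 4.08 to 4.61 for the Y-linked genes and 11.68 to 11.82 for Xist. The first 2 replicates of each genotype are called Y-signal arrays below, and the other two Xist-signal arrays. These sets are not groups of the study, they follow the replicate numbers, and anything else that differed between the low and the high replicate numbers cannot be told apart from them. The Il10 row read 4.90 to 5.08 in the wild-type arrays and 5.69 to 6.41 in the arrays labelled knockout. Which part of the gene this row reads was not known here, so it does not check the label. The mean of 10 hepatocyte markers was at the same high level throughout, between 12.40 and 12.54 in every array. Single markers could still differ between genotypes. In limma 3 of the 10 had an unadjusted p under 0.05, and 1, Tat, had an adjusted p under 0.05. All values are log2 values, array medians were 6.09 to 6.22, and no detection call comes with them.

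Slc22a7, which encodes the organic anion transporter OAT2 of the hepatocyte's blood-facing membrane, was the member with the lowest adjusted p for genotype. Its wild-type arrays read 8.44, 8.42, 9.13 and 8.78, in replicate order, against 7.30, 6.90, 7.02 and 6.32 for the arrays labelled knockout. Every knockout array was below every wild-type array, with a gap of more than the whole range within either group. The wild-type mean was 8.69 ± 0.34 and the knockout mean 6.88 ± 0.42 (SD, n = 4 each). The log2 difference was -1.81 (SE 0.21, 95% interval -2.29 to -1.33) or 3.50-fold lower, with adjusted p = 0.00605 over all genes. Leaving out each array in turn gave differences of -1.95 to -1.62 with adjusted p between 0.0035 and 0.0239. The difference was -1.33 (adjusted p = 0.0245) in the Y-signal arrays and -2.29 (adjusted p = 0.0135) in the Xist-signal arrays, 2 against 2 in each. The difference between those values, 0.96 (SE 0.33), had adjusted p = 0.823. In bulk liver, fewer cells of a type and less RNA per cell cannot be told apart.

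**Figure D1:**
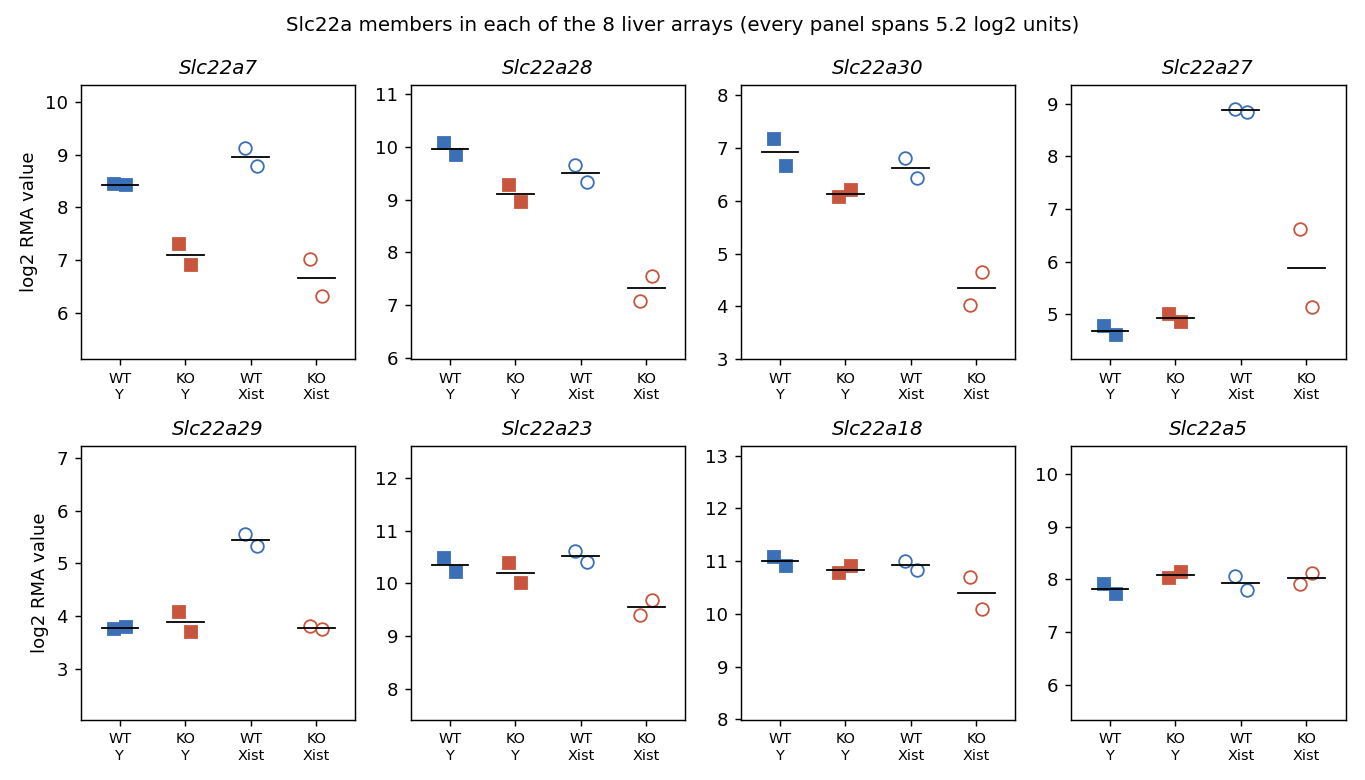
Log2 values of the 8 measured members in every array, 1 panel a gene; columns are wild-type (WT, blue) and IL-10 knockout (KO, red) arrays, with squares for Y-signal arrays, open circles for Xist-signal arrays and black lines at the mean of 2 arrays. Slc22a7 is lower in all KO arrays, whereas the drop of Slc22a28 and Slc22a30 is deepest in the KO Xist-signal arrays and Slc22a27 and Slc22a29 are highest in the 2 WT Xist-signal arrays.

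Slc22a28 and Slc22a30, OAT-like genes of the chromosome 19 run, moved nearly in parallel. Slc22a28 read 10.07, 9.85, 9.66 and 9.33 in the wild-type arrays and 9.27, 8.95, 7.08 and 7.55 in the arrays labelled knockout. Slc22a30 read 7.17, 6.67, 6.81 and 6.43 in the wild-type arrays and 6.07, 6.20, 4.03 and 4.66 in the arrays labelled knockout. For both genes the genotypes did not overlap, and knockout replicates 3 and 4 were the lowest of all arrays. Over all 8 arrays the differences were -1.52 (SE 0.43, adjusted p = 0.0865) for Slc22a28 and -1.53 (SE 0.43, adjusted p = 0.0855) for Slc22a30, and neither passed 0.05. With the signal set as a block the same differences passed, with adjusted p = 0.013 and 0.022. Within the Xist-signal arrays Slc22a28 was 4.54-fold lower (-2.18, SE 0.19, adjusted p = 0.00842) and Slc22a30 4.86-fold lower (-2.28, SE 0.23, adjusted p = 0.012). The knockout values of Slc22a30 there, 4.03 and 4.66, lie below the array medians, so its fold is uncertain and may be too small. The Y-signal arrays gave differences of -0.85 (SE 0.15, adjusted p = 0.071) and -0.78 (SE 0.17, adjusted p = 0.134). The size of the difference did not itself differ between the sets past the threshold, with interaction values of 1.33 (95% interval 0.72 to 1.94, adjusted p = 0.443) and 1.5 (95% interval 0.75 to 2.25, adjusted p = 0.521). Without knockout replicate 1 both genes passed in the fit without the block, with adjusted p = 0.0295 for Slc22a28 and 0.0469 for Slc22a30. Pearson's r between the 2 genes over the 8 arrays was 0.99 (Spearman's rho 0.95), a description that both genotype and signal set feed. The windows printed above are nearly the same for these genes. Whether their array probes also read each other's transcripts was not tested.

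Slc22a27 and Slc22a29, also of the run, showed another profile. Slc22a27 read 4.78, 4.61, 8.90 and 8.85 in the wild-type arrays and 5.01, 4.85, 6.63 and 5.15 in the arrays labelled knockout. Wild-type replicates 3 and 4, which carry Xist signal, stood far above the other arrays, and knockout replicate 3 was between. Slc22a29 read 3.76, 3.79, 5.56 and 5.32 in the wild-type arrays and 4.07, 3.70, 3.81 and 3.75 in the arrays labelled knockout. Here wild-type replicates 3 and 4 were the only arrays above 4.07, and all 8 values were below the array medians, where a fold can be understated. The genotype differences over all arrays were -1.37 (SE 0.99, adjusted p = 0.447) for Slc22a27 and -0.77 (SE 0.38, adjusted p = 0.28) for Slc22a29, with overlapping groups. They were largest without wild-type replicate 1 (-2.04 and -1.06) or 2 (-2.10 and -1.05) and smallest without wild-type replicate 3 (-0.67 and -0.46) or 4 (-0.69 and -0.53), and none of these passed. Among the Xist-signal arrays Slc22a27 was 7.91-fold lower with the knockout label (-2.98, SE 0.42, adjusted p = 0.0287) and Slc22a29 3.15-fold lower (-1.66, SE 0.13, adjusted p = 0.00597). The Y-signal arrays gave values of 0.24 (SE 0.12, adjusted p = 0.561) and 0.11 (SE 0.14, adjusted p = 0.852).

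Slc22a23, an orphan member with no settled substrate, read 10.47, 10.22, 10.62 and 10.40 in the wild-type arrays and 10.39, 10.0, 9.40 and 9.69 in the arrays labelled knockout. The groups overlapped through knockout replicate 1, and the difference of -0.56 (SE 0.18) had adjusted p = 0.128. Without knockout replicate 1 it was -0.73 (adjusted p = 0.0279), and in the Xist-signal arrays -0.96 (adjusted p = 0.0432), against -0.15 (adjusted p = 0.815) in the Y-signal arrays. Slc22a18, an imprinted gene expressed mainly from the maternal copy, read 11.08, 10.91, 11.01 and 10.83 in wild-type and 10.77, 10.90, 10.69 and 10.10 in knockout arrays. Its difference of -0.34 (SE 0.15) had adjusted p = 0.24, and the groups overlapped. It was -0.17 (adjusted p = 0.382) without knockout replicate 4, the lowest array. Slc22a5, the sodium-coupled carnitine importer OCTN2, was the only measured member with a higher knockout mean. It read 7.91, 7.73, 8.06 and 7.79 in wild-type and 8.03, 8.14, 7.92 and 8.12 in knockout arrays, a difference of 0.18 (95% interval -0.02 to 0.38, adjusted p = 0.285). Neither Slc22a18 nor Slc22a5 passed in either set of arrays.

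Among all genes 3.15% were called for genotype at adjusted p under 0.05, and 1.59% were called lower in the arrays labelled knockout. Of the 8 measured members 1 was called, Slc22a7, and it was lower. The genotype groups did not overlap for 3 of the 8 members (Slc22a7, Slc22a28 and Slc22a30) and for 12.9% of all genes. With the signal set as a block 3 members were called, all lower, and 4.68% of all genes. Within the Xist-signal arrays 6 members were called, all lower, against 1.43% of all genes in either direction and 0.83% lower. Within the Y-signal arrays 1 member was called and 0.771% of all genes. The rule for the members drew on this contrast, so nothing is read from these shares. Without knockout replicate 1 the count of called members was 4, and without any other single array it stayed at 1. The median difference over the measured members was -1.07, against 0.06 over the 16 other family genes and 0.03 over all genes. Because the members were chosen on these same data, nothing is read from this contrast either.

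**Figure D2:**
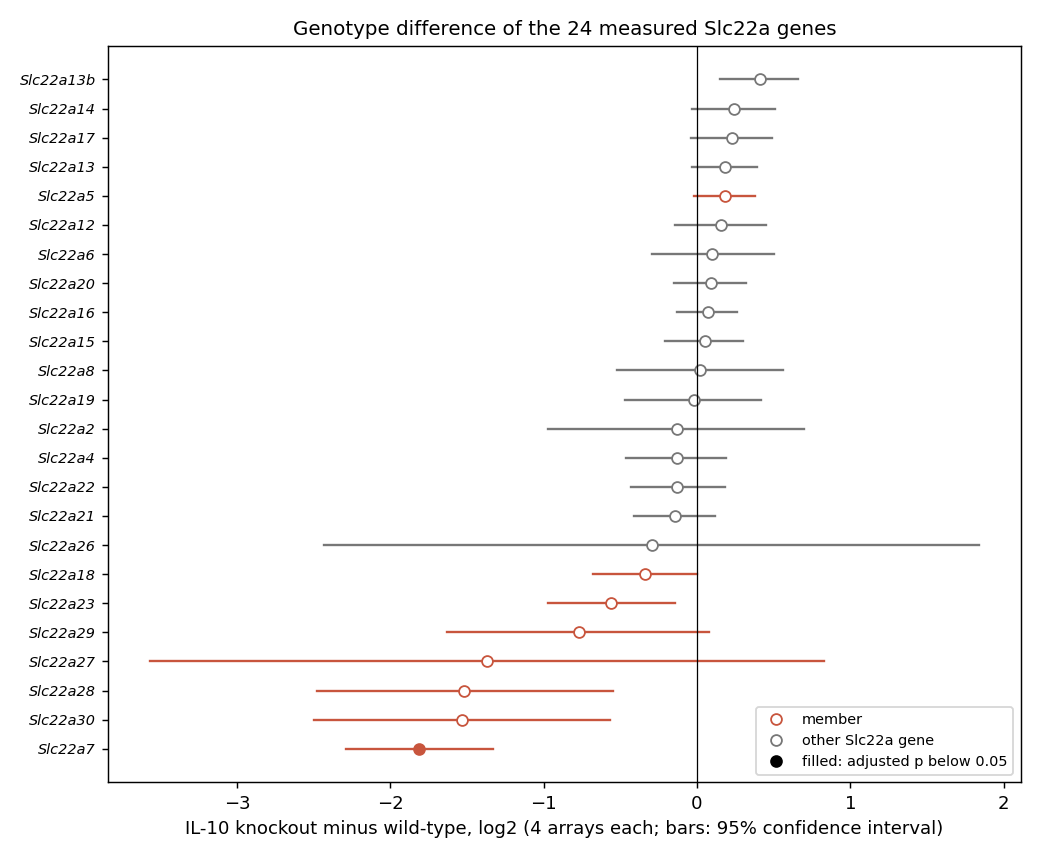
Knockout minus wild-type difference (log2, points) with its 95% confidence interval (bars) for the 24 measured Slc22a genes, in order of size; red marks members, grey the other genes, and a filled point an adjusted p below 0.05. Slc22a7 at -1.81 is the only filled point, and the 16 grey genes lie between -0.29 and 0.41.

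Of the 16 other family genes 0 were called for genotype by limma, and 1 had an unadjusted p under 0.05. That gene, Slc22a13b, had the lowest adjusted p of the 16 (0.0843), and its difference was 0.41. The OCTN genes Slc22a4 and Slc22a21, neighbours of Slc22a5 on chromosome 11, differed by -0.13 (adjusted p = 0.617) and -0.14 (adjusted p = 0.515). On the other side of Slc22a5 the nearest gene, Irf1, an interferon-induced transcription factor, differed by 0.05 (adjusted p = 0.888). Next to Slc22a7 on chromosome 17, Crip3 differed by -0.16 (adjusted p = 0.383) and Ttbk1 by 0.14 (adjusted p = 0.576). Beside Slc22a18 on chromosome 7 are the imprinted genes Cdkn1c (0.10, adjusted p = 0.493), an inhibitor of the cell cycle, and Phlda2 (0.07, adjusted p = 0.641), a growth restrictor of the placenta. Cars, the third gene in that direction, which loads cysteine onto its transfer RNA, fell by 0.58 (adjusted p = 0.027) and was the only one of the 20 listed neighbours of Slc22a18 to pass. Beside Slc22a23 on chromosome 13, Tubb2b, a tubulin, fell by 0.32 (adjusted p = 0.0477), and Psmg4 and Pxdc1, which lie closer, did not pass. Of the 12 measured listed neighbours of Slc22a5, 0 passed in limma and 3 had an unadjusted p under 0.05. Of the 12 measured neighbours of the unmeasured Slc22a3, 1 passed, the mitochondrial superoxide dismutase Sod2, which rose by 0.70 (adjusted p = 0.0188). The share of all genes that passed was 3.15%.

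The signal set was tested with genotype as a term. Since the members were chosen on results of these same data, nothing is read from the counts of members here. Arrays with Y-linked signal minus Xist-signal arrays, Slc22a27 differed by -2.57 (SE 0.58, adjusted p = 0.275), Slc22a29 by -0.79 (SE 0.30, adjusted p = 0.679), Slc22a28 by 1.13 (SE 0.25, adjusted p = 0.263) and Slc22a30 by 1.04 (SE 0.29, adjusted p = 0.479). So 0 of the 8 members passed in limma, although 4 had an unadjusted p under 0.05, and 0.198% of all genes passed. For Slc22a27, leaving out each array in turn gave -3.19 to -2.21 with adjusted p between 0.0285 and 0.811. That gene passed only without knockout replicate 4. Without knockout replicate 3, its highest knockout array, the value was -2.59 (adjusted p = 0.384). The values for Slc22a7 (-0.05, 95% interval -0.54 to 0.45) and Slc22a5 (-0.02, 95% interval -0.23 to 0.19) were near 0. In the wild-type arrays alone, a comparison added after the data were seen, 2 members passed, against 0.23% of all genes. There Slc22a27 was 18.1-fold lower in the Y-signal arrays (-4.18, SE 0.12, adjusted p = 1.76e-06) and Slc22a29 3.18-fold lower (-1.67, SE 0.13, adjusted p = 0.000744). The Y-signal means there, 4.70 and 3.77, lie below the array medians and carry no detection call, so both folds are uncertain and may be too small. In the knockout arrays alone 0 members passed in limma, 3 had an unadjusted p under 0.05, and 0.0586% of all genes passed. The largest values there were 1.80 for Slc22a28 (adjusted p = 0.105) and 1.79 for Slc22a30 (adjusted p = 0.124), both higher with Y-linked signal, and Slc22a27 differed by -0.96 (adjusted p = 0.633).

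**Figure D3:**
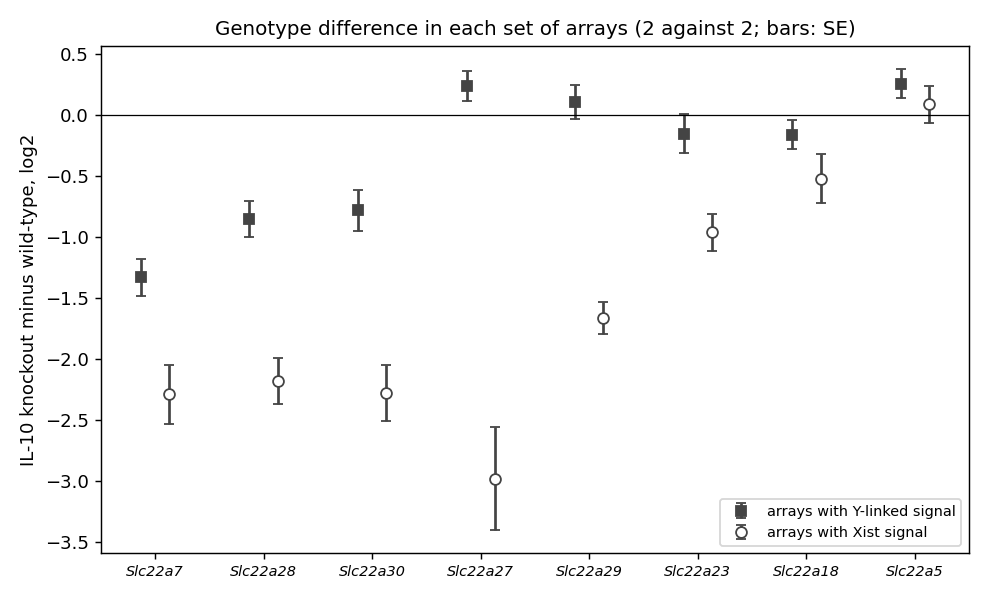
Knockout minus wild-type difference (log2) of each measured member in the Y-signal arrays (filled squares) and in the Xist-signal arrays (open circles), 2 arrays against 2 each, with bars of 1 standard error. The open circles lie lower than the squares for every member, from -2.98 for Slc22a27 to 0.09 for Slc22a5; the test of that gap passed for Slc22a29 alone.

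Whether the genotype difference itself differed between the sets was tested by their interaction. Of the members 1 passed, Slc22a29, with a difference between the sets of 1.77 (SE 0.20, 95% interval 1.31 to 2.22, adjusted p = 0.0422), and 0.0271% of all genes passed, which is 6 genes. The other 5 were Mir344d-2, Slc10a6, Cyp2d9, Sytl5 and Rasd1. For Slc22a27 the value was larger, 3.22, but so was its error (SE 0.52, adjusted p = 0.204). With array weights Slc22a29 had adjusted p = 0.0635, with quantile normalization 0.0783, and it was left out where the lowest 40% of genes were removed, so the call rests on the setting and on a gene at the low end of the scale.

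The members of the chromosome 19 run can be set beside their neighbours in the same cluster. Slc22a26, a member of the run that is not in the list, read 8.50, 7.79, 11.75 and 11.66 in wild-type and 8.32, 8.71, 11.14 and 10.35 in knockout arrays. All Xist-signal arrays were above all Y-signal arrays. It was called between the sets (-2.90, SE 0.29, adjusted p = 0.00375), rank 15 by p among 44 called genes, with no genotype difference past the threshold (-0.29, adjusted p = 0.884). In the knockout arrays alone its set difference was -2.23 (adjusted p = 0.135), where that of its neighbour Slc22a27 was -0.96. Slc22a19, on the far side, read between 4.58 and 5.42 and Slc22a8 between 6.33 and 7.23. Going along the run, Slc22a26, Slc22a27 and Slc22a29 were higher with Xist signal in wild-type liver and Slc22a28 and Slc22a30 were not, so the 2 profiles interleave along the run.

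**Figure D4:**
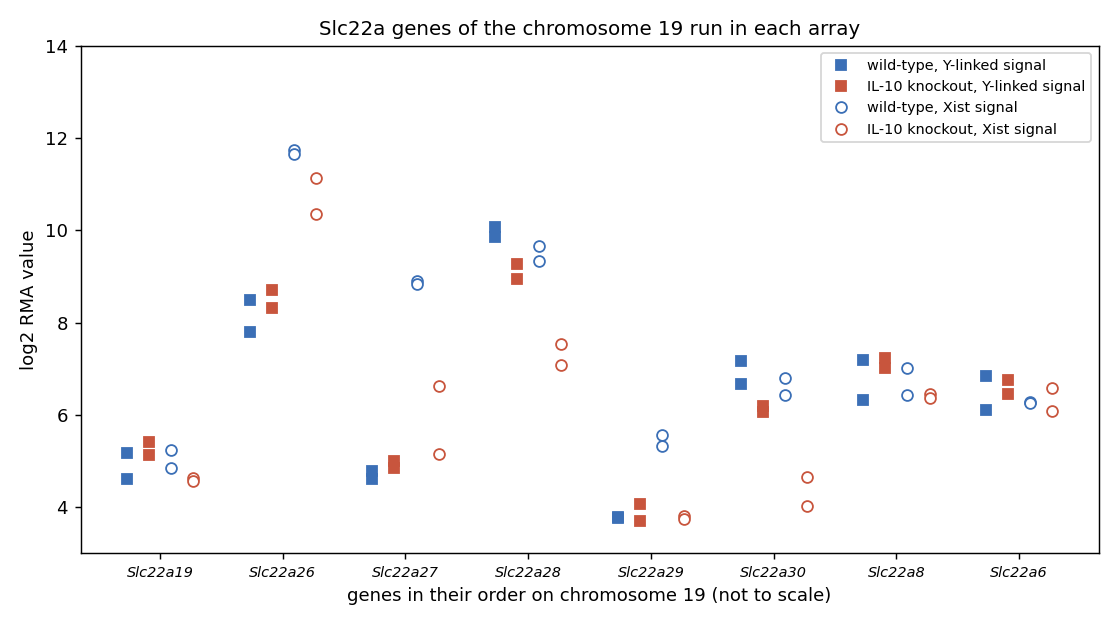
Log2 values of the 8 Slc22a genes of the chromosome 19 run in each array, ordered along the chromosome and not drawn to scale; blue is wild-type, red IL-10 knockout, squares are Y-signal arrays and open circles Xist-signal arrays. Slc22a26 and Slc22a27 stand high in the wild-type Xist-signal arrays (11.75 and 11.66, 8.90 and 8.85), and in the matching knockout arrays Slc22a26 reads 11.14 and 10.35 while Slc22a27 reads 6.63 and 5.15.

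Genes known for sex-dependent liver expression were followed beside them. Their lists were drawn from general knowledge but with earlier results of these data known, so the counts are a description. Of 17 genes listed as higher in male mouse liver 8 were called higher in the Y-signal arrays, such as Cyp4a12a (3.16, adjusted p = 0.00173) and Elovl3 (3.43, adjusted p = 0.0156), with a list median of 1.56. Of 20 measured genes listed as higher in female mouse liver 5 were called lower there, such as Sult2a2 (-4.47, adjusted p = 0.00362) and Cyp2b9 (-5.59, adjusted p = 0.00893), with a list median of -0.71. The median over all genes was -0.01, and 0.198% of all genes were called in either direction. For genotype, the list medians were -0.55 (male list) and -0.59 (female list), with 1 gene called lower in each, Cyp2f2 and Cyp3a44. The share of all genes called lower for genotype was 1.59%. Within the Xist-signal arrays 4 of the 20 female-list genes fell in the knockout arrays, among them Cyp2b13, a cytochrome P450 (-3.38, adjusted p = 0.0285). Of the 17 male-list genes 2 fell there as well, the anion carrier Slco1a1 (-2.88, adjusted p = 0.0057) and Nudt7 (-1.47, adjusted p = 0.0358), and 1 rose, Cyp2d9 (1.33, adjusted p = 0.00851). Among all genes 0.83% were called lower in that comparison. Within the Y-signal arrays 2 male-list genes and 1 female-list gene were called lower in the knockout arrays, and 0 higher. The list medians there were -0.47 and -0.10, and 0.771% of all genes were called in either direction. The lists were not tested against each other.

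Markers of other cells moved with some of these values. The mean of 9 kidney tubule markers was 7.50, 6.10, 7.10 and 6.27 over the wild-type arrays, in replicate order. Over the knockout arrays it was 7.01, 7.61, 6.30 and 5.94, a range that the mean of the hepatocyte markers did not show. Slc34a1 and Kap, defining genes of the proximal tubule, and Umod of the thick ascending limb are in that list, and 0 of the 9 were called for genotype by limma, with 1 at an unadjusted p under 0.05. Among the rest of the family the kidney carriers Slc22a2 and Slc22a8 followed this mean: Slc22a2 read 7.00, 5.59, 6.06 and 5.56 in wild-type and 6.04, 6.84, 5.37 and 5.41 in knockout arrays. Spearman's rho with Slc22a2 over the 8 arrays, a description, was 0.81 for Slc22a18, 0.74 for Slc22a30 and 0.64 for Slc22a28 and Slc22a23. It was 0.33 for Slc22a7, 0.17 for Slc22a5, -0.17 for Slc22a29 and -0.38 for Slc22a27, so the members did not all follow Slc22a2. For the other family genes Slc22a8, Slc22a6 and Slc22a12 it was 0.76, 0.60 and 0.21. Slc22a18 had the order of the marker mean in the knockout arrays. Slc22a28 read 9.85 in wild-type replicate 2 and 8.95 in knockout replicate 2, where the marker mean was 6.10 and 7.61. In the Xist-signal arrays the marker mean was 7.10 and 6.27 in wild-type and 6.30 and 5.94 in knockout, the same direction as Slc22a28 and Slc22a30, and its part in the values of the members was not tested.

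**Figure D5:**
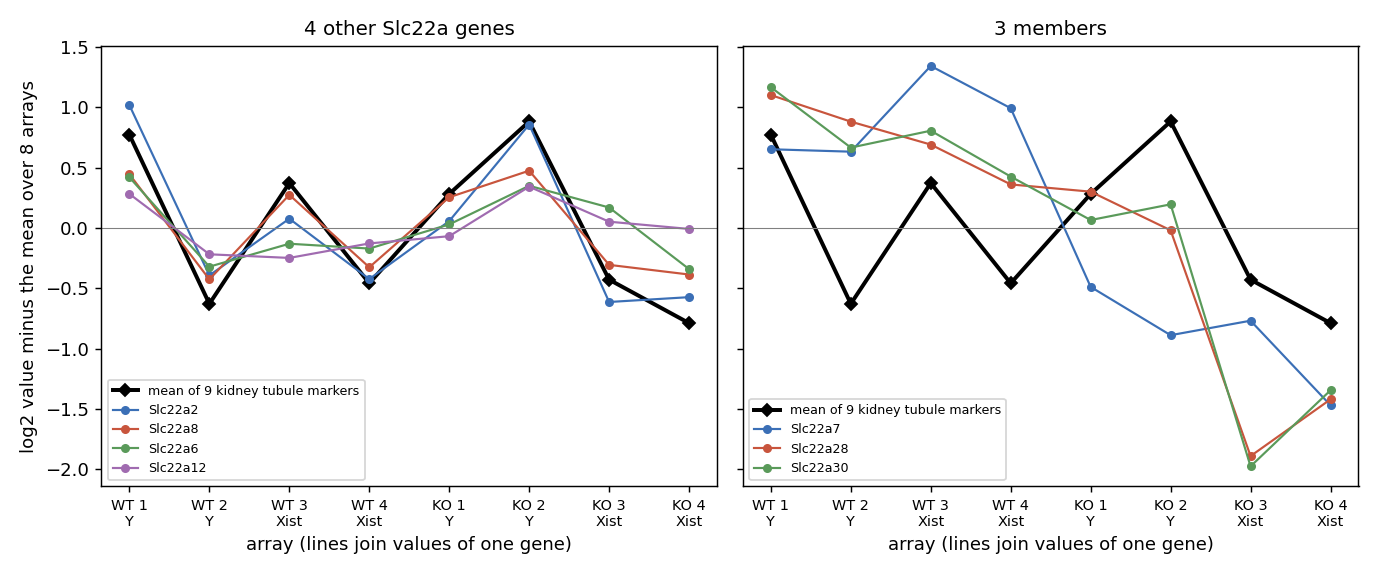
Mean of 9 kidney tubule markers (black diamonds) beside 4 other Slc22a genes (left) and 3 members (right), each as the log2 value minus its mean over 8 arrays; lines only join the values of one gene. Slc22a2 and Slc22a8 are high in WT 1 and KO 2 like the markers, while Slc22a7 is high in all 4 WT arrays.

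Immune cell markers were higher in the arrays labelled knockout. Of 12 neutrophil markers 9 rose, such as Mmp8 (2.16, adjusted p = 0.00815) and Ngp (2.42, adjusted p = 0.00851), with list means of 6.71 to 7.05 in wild-type and 7.54 to 8.16 in knockout arrays. Of 12 Kupffer cell and macrophage markers 6 rose, with list means of 9.29 to 9.59 and 9.82 to 10.27. Of 8 stellate cell markers 2 fell, Lrat and Lum, and of 10 hepatocyte markers 1 rose, the tyrosine aminotransferase Tat (0.51, adjusted p = 0.0247), and none fell. Of 7 sinusoidal endothelium markers 1 rose, Lyve1, of 6 bile duct markers 1 fell, Pkhd1, and of 5 T and B cell markers 0 passed, with 1 at an unadjusted p under 0.05. The part of these cells in the difference of Slc22a7 was not tested.

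Other carriers of the hepatocyte give the setting of Slc22a7. Of 27 measured genes for uptake and efflux of anions, drugs and bile salts, 0 rose and 2 fell, with a list median of -0.22. Among all 22180 genes 347 were called higher and 352 lower. The 2 were Abcb11, the bile salt export pump (-0.70, SE 0.15, adjusted p = 0.0351), and Slc47a1, the cation extruder MATE1 (-0.82, SE 0.17, adjusted p = 0.0364). Of 8 genes of carnitine synthesis and the carnitine shuttle, partners of Slc22a5, 1 rose, the carnitine acetyltransferase Crat (0.57, SE 0.09, adjusted p = 0.0144). Bbox1, the last enzyme of carnitine synthesis, differed by -0.53 (adjusted p = 0.0784). Of 22 transcription factors and receptors that act on liver transporter genes 2 fell. Stat5b, which relays growth hormone and sex-dependent expression in liver, read 9.93 to 10.25 in wild-type and 9.36 to 9.61 in knockout arrays (-0.62, SE 0.09, adjusted p = 0.00851). Ppara, the fatty acid receptor, fell by 0.81 (adjusted p = 0.0401). Hnf4a, a main regulator of hepatocyte genes, differed by 0.17 (adjusted p = 0.221).

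The genes whose profile over the 8 arrays lay nearest to each member were found by Pearson's r. The search covered genes with a value, with predicted genes and small RNAs left out. These r values are a description over 8 arrays that share genotype and signal set. For Slc22a7 they were Usf3 (r = 0.990), Gstt1 (0.986), a glutathione transferase, and Atp6v0d2 (0.986), a proton pump subunit. Between genotypes these differed by -0.28, -1.20 and -3.04, so a high r does not mean a like size of difference. For Slc22a28 they were Ppp2r5a (0.993), Urod (0.992), an enzyme of heme synthesis, and Ces1f (0.990), a carboxylesterase. Those of Slc22a30 were Cdk6, Atm and A1cf (0.992, 0.992 and 0.991). Slc22a27 lay nearest to Cbx3 (0.989), Cyp2b13 (0.973) and Pwwp3b (0.964), and Slc22a29 to Sytl5 (0.973), Cyp2a4 (0.968) and Cbx3 (0.961). Cyp2b13 and Cyp2a4 are in the list of genes higher in female liver. The nearest to Slc22a23 were Grb14, Lsm12 and Nckap1 (0.994, 0.994 and 0.989), to Slc22a18 Abhd14b, Pih1d1 and Cmtm8 (0.987, 0.985 and 0.981), and to Slc22a5 Arhgap4, Arhgap15 and Med7 (0.961, 0.951 and 0.951). Among the members themselves Slc22a23 followed Slc22a28 and Slc22a30 (r = 0.93 with each), Slc22a27 followed Slc22a29 (r = 0.93), and Slc22a27 and Slc22a28 had r = 0.02.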

How the data were processed

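The deposited values are on the log2 scale. The authors made them with RMA (robust multi-array average), and the submitters' processing notes also name R 3.0.1. For background settings, probe summary and genome build, the sources used here give nothing. The table holds 41345 rows, of which 23521 name 1 gene in the platform annotation, 1814 several, and 16010 are not listed. For each of 22180 genes the row with the highest mean over the 8 arrays was kept. Groups and replicate numbers came from the sample titles. Since no label links an array to a particular animal, p-values reflect only how these samples vary. Precision is limited by the small number of arrays.

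Differences were fitted over all genes with limma 3.58.1 (lmFit and eBayes, R 4.3.3), with Benjamini-Hochberg adjustment and a call at adjusted p below 0.05. The fitting code was checked on simulated data with known changes. Genotype was fitted alone, with the signal set as a block and within each set. The signal set was fitted with genotype, and their interaction in a separate model. An array was put in a set by whether the mean of the measured Y-linked genes exceeded Xist.

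The members and all gene lists were chosen with earlier results of these data known. Named genes are the members, the rest of the family, the 3 genes nearest to each member by Pearson's r (predicted genes and small RNAs left out), up to 4 genes with the smallest p from each list, and Hnf4a, Ppara, Il10, Xist and the Y-linked genes. Genes of a list that passed a test, gene neighbours and the genes called in the interaction were named besides. Same-numbered arrays of the 2 genotypes had deviations correlated at 0.27, 0.04, -0.10 and 0.29, so the numbers were not taken as pairs. The 2 most alike arrays differed by 0.26 (root mean square), so none is a copy. Promoter windows were aligned with Biopython 1.88. Alternatives covered the filter, the row, the scaling, the variance prior, array weights, the threshold and each array left out.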

Additional observations from a re-analysis of the deposited data

Results flagged for a closer look

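In the arrays labelled knockout, Slc22a27 in replicate 3 stood apart from the other 3, at 6.63 against 4.85 to 5.15. Of 48 groups of 4 checked, 1 was marked in this way, and chance marks about 1 in 20.

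The genotype difference of Slc22a29 was 1.77 higher in the Y-signal arrays than in the Xist-signal arrays, by the interaction term of the limma fit (adjusted p = 0.0422). That term was not called with array weights (adjusted p = 0.0635) or quantile normalization (adjusted p = 0.0783). All values of the gene lay below the array medians, and only wild-type replicates 3 and 4 read above 4.07.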

How the results depend on the processing

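Slc22a7, the only member called for genotype over all arrays, was called under all 19 alternatives with the same sign. Slc22a27 and Slc22a29 were below 0 over all arrays and above 0 in the Y-signal arrays (0.24 and 0.11, neither called). The count of genes called for genotype, 699, was 317 in the arrays with Xist signal alone, 171 in those with Y-linked signal alone and 1685 at adjusted p below 0.1. With each array left out it ranged from 207 to 1040: it was 207 without knockout replicate 4, 207 without wild-type replicate 1, 237 without wild-type replicate 2, 238 without wild-type replicate 3 and 410 without wild-type replicate 4. The replicate block called 497 genes and 2 members, Slc22a28 (adjusted p = 0.0431) besides Slc22a7, and could not be fitted with the signal set, which lies within the numbers. Members called for genotype were 1, and 3 with the signal set as a block, 6 with Xist signal alone, 3 at adjusted p below 0.1, and 1 to 4 with each array left out. The count called between the signal sets, 44, was 13 without the genotype term, 13 in the knockout arrays alone and 19 to 36 with each array left out (28 without knockout replicate 2, 23 without wild-type replicate 1 and 19 without wild-type replicate 4). Members called there were 0, 2 in the wild-type arrays alone, and 0 to 1 with each array left out. Members called in the interaction were 1, and 0 with array weights, quantile normalization or the lowest 40% of genes left out. Causes were not tested, except that fewer arrays enter the fits within a set. Slc22a29 and the lower values of Slc22a27 and Slc22a30 lie below the array medians.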
